A study of Mus musculus with 12 samples.

Results

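Olfactory and vomeronasal receptor genes were followed in mouse embryonic stem cells sorted by a reporter of the 2-cell-like state. The genes were those with a GENCODE M21 symbol that starts with Olfr, Vmn1r or Vmn2r and for which 2 or more of the 12 libraries held 10 counts or more, after the deposited transcript counts were summed per gene. Of 1974 annotated receptor genes, 652 had a count in some library and 90 met this rule: 62 Olfr, 9 Vmn1r and 19 Vmn2r genes on 18 chromosomes. GENCODE lists 62 of the 90 as protein coding and 28 as pseudogenes of some kind.

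The cells were E14 mouse embryonic stem cells, an established line, and all 6 groups carried the same 2C::3xtbGFP reporter of turbo green fluorescent protein (tbGFP), whose driving promoter the labels do not spell out further. Cells were plated without the 2 kinase inhibitors used to keep the naive state and exposed to sorbitol, a sugar alcohol that raises osmolarity, for 0, 6 or 24 h before they were sorted into tbGFP-negative and tbGFP-positive cells. Each of the 6 groups had 2 libraries of total RNA, and the labels do not say that these came from separate cultures, so p-values measure the spread between these libraries, which may be technical. Since none of the groups spent 6 or 24 h in culture free of sorbitol, time in culture and sorbitol cannot be told apart. In such bulk samples, more cells of a type and more RNA per cell cannot be told apart either.

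Olfr genes encode odorant receptors, and Vmn1r and Vmn2r genes encode the V1R and V2R families of vomeronasal receptors, all of them receptors with the membrane-spanning structure of G protein-coupled receptors. They lie in clusters on many chromosomes. In the olfactory epithelium a sensory neuron expresses a single odorant receptor gene from 1 allele, after a choice among the whole repertoire. The coding sequence of an Olfr or Vmn1r gene usually lies in 1 exon, behind noncoding upstream exons, whereas Vmn2r coding sequences are split over several exons.

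Libraries held 2306870 to 7900178 counts. The sort was visible in a list of 14 marker genes of the 2-cell-like state. Their summed level was 38700 to 64200 CPM (counts scaled to library size with TMM factors) in the tbGFP-positive libraries. In tbGFP-negative libraries it was 17.5 to 40.1 CPM at 0 h, 59.3 to 75.6 CPM at 6 h and 881 to 935 CPM at 24 h. Of 14 markers of olfactory and vomeronasal sensory neurons, the calcium-gated chloride channel gene Ano2 and the vomeronasal channel gene Trpc2 had no counts in any group. The summed level of the list was 132 to 301 CPM in tbGFP-negative and 173 to 259 CPM in tbGFP-positive libraries, most of it from Stmn2 and Tubb3. Mean Tubb3 levels at 0, 6 and 24 h were 113, 102 and 89.7 CPM in tbGFP-positive and 70.9, 53.2 and 40.5 CPM in tbGFP-negative cells. Stmn2 ran the other way, with 123, 99.3 and 64.1 CPM in tbGFP-positive and 166, 172 and 78.6 CPM in tbGFP-negative cells. Of the 10 male germ cell markers, Prm2, Tnp1, Spata16 and Sycp3 were at 0 in all groups. The summed level of that list was 1.12 to 6.65 CPM in tbGFP-negative and 2.13 to 17.5 CPM in tbGFP-positive libraries. Its highest value came from the germ cell RNA-binding protein gene Dazl, with 16.3 CPM in 1 tbGFP-positive library at 6 h, and the part of these markers in the receptor counts was not tested. The tbGFP-positive libraries at 6 h differed in depth, with 3581875 and 7832956 counts, and several receptor genes differed between them.

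What a count stands for in these genes was checked on the transcript table. A read that overlapped more than 1 annotated transcript was not counted, whichever strand the other transcript lay on. Of 35022 transcripts with no base free of another transcript on the same strand, 14 had counts, and of 586 with at least 200 bases free on the same strand but none free on either strand, 0 had counts. Of 63694 transcripts with at least 200 bases free on either strand, 77.4% had counts. Among receptor transcripts, 2097 had no base of their own and 0 of these had counts.

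Many Olfr genes have a short coding-only transcript nested in a longer one, so the coding bases are shared and could not be counted. Of the 90 receptor genes, 65 have a coding sequence, and in 42 of these no coding base could be counted. In 39 of these 42 genes most countable bases lay in the untranslated rest of an exon that also holds coding sequence, and in the other 3 all lay in exons without it. Over the 42 genes together, 90% of the countable bases were of the first kind. For Olfr787, 4019 bases could be counted and 0 of its 936 coding bases. Vmn2r52 was the reverse, with 396 countable bases that are all coding. The counts therefore follow RNA over the gene, and since strand was not used in counting, this RNA may come from either strand. In these 42 genes the counts do not show by themselves that the coding bases were present in the RNA. In 83 of the 90 genes all counts fell in 1 transcript. Of the 1974 annotated receptor genes, 1547 had at least 200 countable bases and 79 had none.

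**Figure D1:**
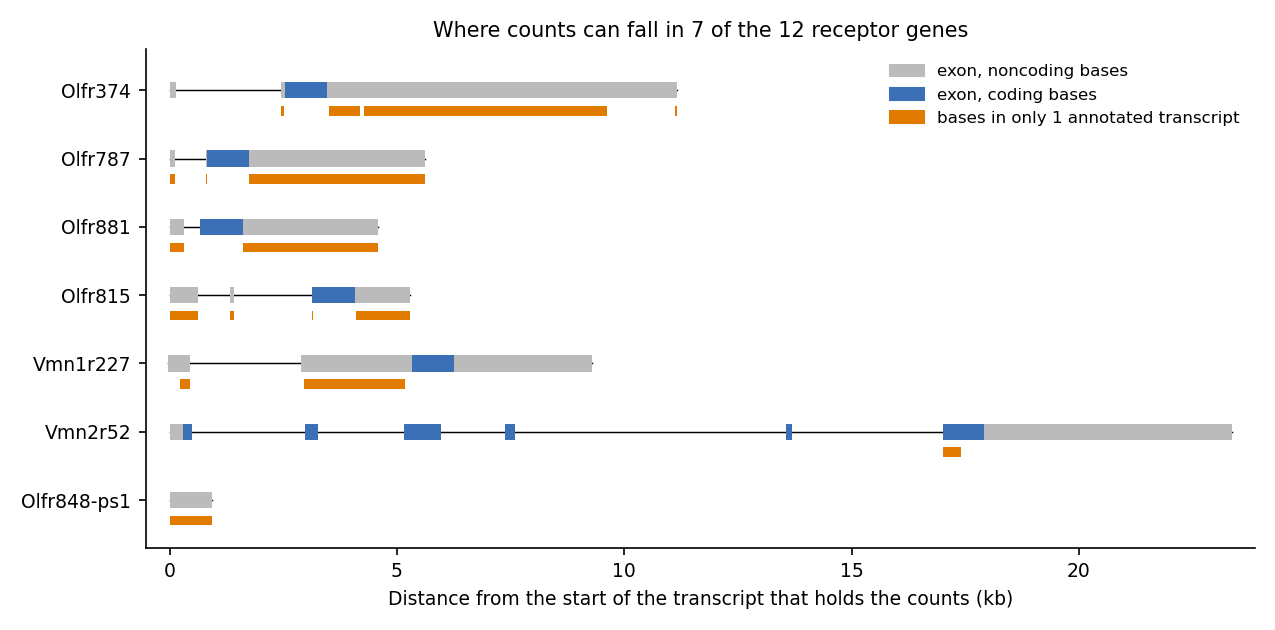
Exons of 7 of the 12 receptor genes called higher in tbGFP-positive cells at every time, with distance in kb from the start of the transcript that holds the counts. Grey boxes are noncoding bases of exons, blue boxes coding bases and orange boxes the bases that lie in only 1 annotated transcript and could be counted. In Olfr374, Olfr787, Olfr881, Olfr815 and Vmn1r227 the orange boxes miss the coding bases but lie mostly in the same exon, whereas the 396 countable bases of Vmn2r52 are coding. The pseudogene Olfr848-ps1 has no coding bases.

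Receptor genes took a larger share of the counts in tbGFP-positive cells at every time. At 0 h the 90 genes held 0.00716% and 0.0106% of the counts in the tbGFP-negative libraries and 0.0559% and 0.0595% in the tbGFP-positive ones. At 6 h the shares were 0.0124% and 0.0112% against 0.0596% and 0.0686%, and at 24 h 0.0147% and 0.016% against 0.0567% and 0.0574%. The lowest tbGFP-positive library stood above the highest tbGFP-negative one. With 2 libraries a group an exact permutation test cannot give a two-sided p below 0.333, so these shares carry no test. The rule admits genes through either fraction, but 46 genes met it only through tbGFP-positive libraries, 12 only through tbGFP-negative ones and 26 through either fraction by itself, so the shares are partly fixed by the choice. Over all 1974 annotated receptor genes, which no count selected, the shares were 0.0098% to 0.0218% in tbGFP-negative and 0.0613% to 0.0792% in tbGFP-positive libraries.

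By family, the Olfr members had 53.8 to 94.7 CPM, here without TMM factors, in tbGFP-negative and 466 to 584 CPM in tbGFP-positive libraries. The Vmn1r members had 5.21 to 23.2 and 23.7 to 33 CPM, and the Vmn2r members 12.6 to 44.5 and 56.3 to 76.1 CPM. Of these members 35 of 62 Olfr, 4 of 9 Vmn1r and 7 of 19 Vmn2r genes met the rule only through tbGFP-positive libraries, so the gaps are partly fixed by the choice. Over all annotated genes of a family, the Olfr genes had 68.5 to 130 CPM in tbGFP-negative and 500 to 639 CPM in tbGFP-positive libraries, and the Vmn2r genes 16.5 to 57.4 and 61.7 to 112 CPM. The annotated Vmn1r genes overlapped between fractions at 24 h, with 33.5 and 33.7 CPM in tbGFP-negative and 30.7 and 41 CPM in tbGFP-positive libraries. A few genes carried the total: Olfr374, Olfr787 and Olfr881 held 40.4% to 49.5% of the members' counts in tbGFP-positive libraries and 0.491% to 4.12% in tbGFP-negative ones. Without these 3 genes the members' share was 0.0287% to 0.0404% in tbGFP-positive and 0.00707% to 0.0154% in tbGFP-negative libraries.

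The breadth of the repertoire separated the fractions less than its level did. At the depth of the shallowest library, 55.0 and 88.8 annotated receptor genes were expected to have a count in tbGFP-negative libraries at 0 h, and 155.4 and 103.1 in tbGFP-positive ones. At 6 h the values were 139.9 and 138.4 against 145.2 and 111.6, so the fractions overlapped. At 24 h they were 125.3 and 129.1 against 144.4 and 159.9.

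**Figure D2:**
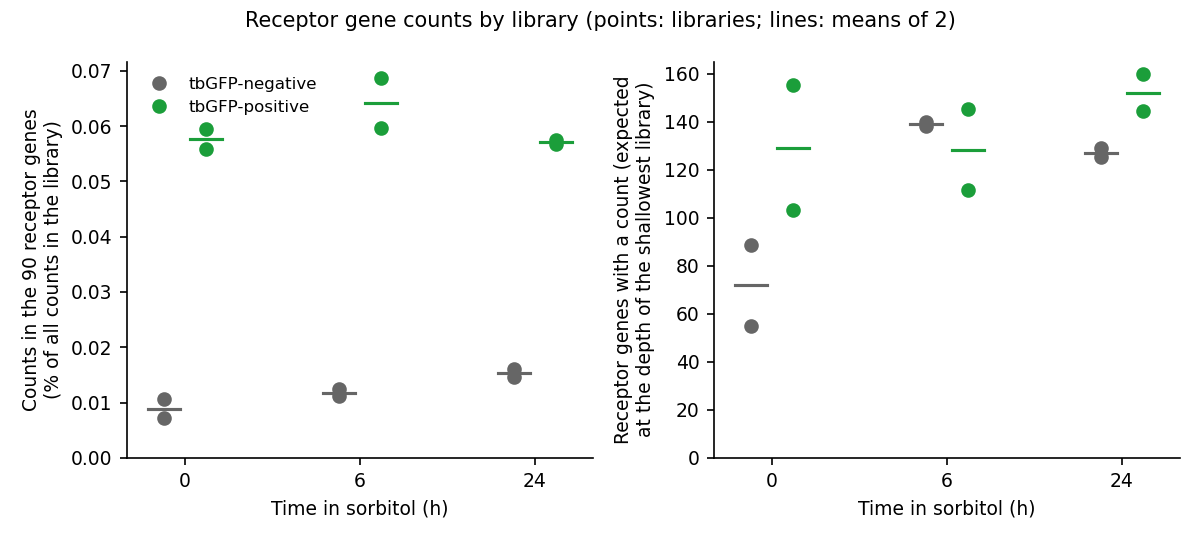
Left, the share of each library's counts in the 90 receptor genes, in percent, by time in sorbitol. Right, the number of annotated receptor genes expected to have a count at the depth of the shallowest library. Points are libraries, lines are means of 2, grey is tbGFP-negative and green tbGFP-positive. The shares of the fractions are apart at each time (lowest green 0.0559%, highest grey 0.016%), and the numbers of genes overlap at 6 h.

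Gene by gene, tbGFP-positive cells were compared with tbGFP-negative cells at each time by edgeR's quasi-likelihood test over 19384 genes, with Benjamini-Hochberg adjusted p under 0.05 as the threshold. At 0 h 15 of the 90 receptor genes were higher (16.7%), against 6.66% of all genes tested, and 0 were lower, against 0.449%. At 6 h 16 were higher (17.8%), against 6.92%, and 0 were lower, against 5.22%. At 24 h 14 were higher (15.6%), against 5.35%, and 0 were lower, against 0.113%. Among the members, 1 gene at 0 h, 1 at 6 h and 0 at 24 h were lower at an unadjusted p under 0.05. DESeq2 called 21, 22 and 17 higher and 0 lower at any time. The median log2 fold change of the members was 1.73, 1.81 and 0.90, beside 0.00, -0.07 and -0.05 over all genes tested.

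These counts and medians cannot stand as support on their own, since 46 members met the count rule only through libraries of the higher fraction. They also leaned on single libraries. At 0 h 9 genes were called without tbGFP-negative replicate 2 at 0 h, and 26 or 27 without tbGFP-positive replicate 1 or 2 at 6 h. At 6 h 8 genes were called without tbGFP-negative replicate 1 at 6 h and 26 without either tbGFP-positive library at 6 h. At 24 h 9 were called without tbGFP-negative replicate 2 at 24 h and 22 without tbGFP-positive replicate 1 at 6 h.

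**Figure D3:**
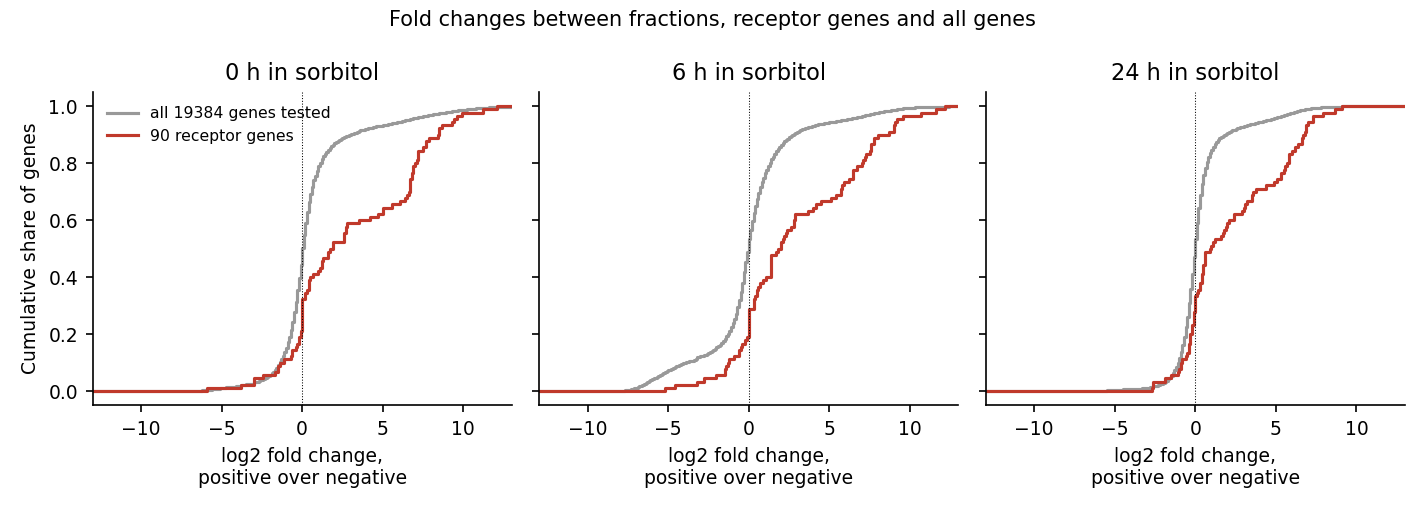
Cumulative share of genes (vertical axis) by log2 fold change of tbGFP-positive over tbGFP-negative cells (horizontal axis) at 0, 6 and 24 h, for the 90 receptor genes in red and all 19384 genes tested in grey. The red curves lie to the right of the grey ones, with medians of 1.73, 1.81 and 0.90 against 0.00, -0.07 and -0.05.

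In all, 20 receptor genes were higher in at least 1 of the 3 comparisons: 15 Olfr, 2 Vmn1r and 3 Vmn2r genes on 11 chromosomes. Of these, 12 were higher at every time, namely Olfr374, Olfr787, Olfr881, Olfr815, Olfr1425, Olfr450, Olfr1277, Olfr699, Olfr848-ps1, Vmn1r227, Vmn2r52 and Vmn2r94. The shares of all tested genes called in at least 1 or in all 3 comparisons were not taken. Olfr374, Olfr787, Olfr815, Olfr881 and Vmn2r94 kept the call at all 3 times under every alternative run. Without tbGFP-negative replicate 2 at 0 h, the 0 h calls of Olfr450, Olfr699, Olfr848-ps1 and Vmn2r52 ended (adjusted p = 0.0687, 0.0648, 0.0689 and 0.12). Without tbGFP-negative replicate 1 at 6 h, the 6 h calls of Olfr450, Olfr1277, Olfr848-ps1 and Vmn2r52 ended. The 24 h call of Olfr450 ended without tbGFP-negative replicate 2 at 24 h, and those of Olfr1425 and Olfr848-ps1 without either tbGFP-negative library at 24 h. Of 20 alternative fits, 18 kept the 24 h call of Olfr1425 and 14 that of Olfr848-ps1.

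Olfr374, an odorant receptor gene on chromosome 8 (72107040 to 72118200, plus strand, GRCm38), had the highest level. In tbGFP-positive libraries it stood at 149 and 151 CPM at 0 h, 119 and 136 CPM at 6 h, and 152 and 133 CPM at 24 h. In tbGFP-negative libraries it stood at 0 and 1.82 CPM, then 0.671 and 1.25 CPM, then 3.0 and 4.69 CPM. The fractions were far apart in every pair of libraries, and the tbGFP-positive level stayed within a narrow range over time. The log2 fold change was 6.83 ± 0.47 (SE, adjusted p = 3.24e-08), 7.06 ± 0.48 (adjusted p = 3.5e-08) and 5.22 ± 0.40 (adjusted p = 1.4e-07). At 0 h all tbGFP-negative counts came from replicate 2, and without that library the estimate was 12.82, which is no bound on the fold. A stretch of 261 bases of its transcript is 98.9% identical to the predicted gene Gm37767, so part of its counts could be shared with that copy.

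Olfr374 was also one of 13 receptor genes whose RefSeq start lies within 100 bases of the start of the counted transcript, and the only one besides Olfr1506 that was called higher. The 250 bases before the RefSeq start (RefSeq, GRCm38.p6) are shown for both, and for Olfr544, a receptor gene with counts in all 12 libraries that was not called. Capitals mark matches to TAATTA (a homeodomain core), CCCNNGGG (a core of Olf1/Ebf sites) or TATAAA, searched on both strands with overlapping matches counted separately. Homeodomain and Olf1/Ebf sites are known features of odorant receptor promoters in sensory neurons. The windows lie at chr8:72106790-72107039 (plus strand), chr2:90224472-90224721 (minus strand) and chr7:102488308-102488557 (minus strand).
Olfr374: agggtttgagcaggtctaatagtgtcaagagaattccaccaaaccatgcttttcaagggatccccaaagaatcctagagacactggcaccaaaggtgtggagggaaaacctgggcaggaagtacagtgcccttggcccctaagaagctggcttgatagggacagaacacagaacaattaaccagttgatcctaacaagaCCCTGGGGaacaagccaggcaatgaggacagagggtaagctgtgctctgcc
Olfr1506: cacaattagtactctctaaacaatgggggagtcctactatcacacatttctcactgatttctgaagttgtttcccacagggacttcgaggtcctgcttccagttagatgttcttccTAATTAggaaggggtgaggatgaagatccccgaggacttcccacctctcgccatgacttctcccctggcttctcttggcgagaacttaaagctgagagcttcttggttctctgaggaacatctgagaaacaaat
Olfr544: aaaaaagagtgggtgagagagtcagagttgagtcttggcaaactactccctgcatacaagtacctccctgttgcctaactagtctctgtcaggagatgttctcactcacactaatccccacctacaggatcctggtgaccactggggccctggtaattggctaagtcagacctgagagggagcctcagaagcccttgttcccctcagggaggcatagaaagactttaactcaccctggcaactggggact

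The Olfr374 window held 1 match to CCCNNGGG, the Olfr1506 window 1 match to TAATTA, and the Olfr544 window none of the 3. Of 32851 RefSeq promoter windows of this length, 4.84% held TAATTA, 11.8% CCCNNGGG and 12.4% TATAAA. Of the 1272 windows of receptor genes, 16.1%, 3.85% and 37.6% did, and of the 14 windows of members called higher, 3, 2 and 5 did. A match is only a match of letters, and for 12 of these 14 genes the window lies more than 100 bases from the start of the transcript that was counted.

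Olfr787, an odorant receptor gene on chromosome 10 (129461862 to 129467485, plus strand), was next. It stood at 80.0 and 101 CPM at 0 h, 88.4 and 103 CPM at 6 h, and 85.7 and 73.3 CPM at 24 h in tbGFP-positive libraries. The 4 tbGFP-negative libraries at 0 and 6 h had no counts, so the tbGFP-positive level was at least 347-fold higher at 0 h and at least 343-fold at 6 h when the empty group is set to 3 counts in all. At 24 h the tbGFP-negative libraries had 0.827 and 0.127 CPM, and the log2 fold change was 7.24 ± 0.48 (adjusted p = 1.55e-07). It was 9.12 without tbGFP-negative replicate 1 at 24 h and 6.63 without replicate 2. Within 500 kb of Olfr787 lie 56 other receptor genes, 48 of them with at least 200 countable bases, of which 4 met the count rule.

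Olfr815, in the same chromosome 10 region (129900570 to 129905867, minus strand), was the only other called gene within 500 kb of a called gene. Its tbGFP-positive libraries stood at 35.0 and 63.0 CPM at 0 h, 15.7 and 52.2 CPM at 6 h and 28.2 and 25.6 CPM at 24 h. The tbGFP-negative libraries reached 0.634 CPM at most, so the fractions did not overlap. The log2 fold change was 6.45 ± 0.77 at 6 h (adjusted p = 3.82e-05) and 5.98 ± 0.72 at 24 h (adjusted p = 4.2e-05), and the level was at least 188-fold higher at 0 h. The 6 h value was 5.29 without tbGFP-positive replicate 2 at 6 h, and the 24 h value 6.95 without tbGFP-negative replicate 2 at 24 h. Its transcript is 97.7% identical to that of Olfr814 over 933 bases.

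Olfr881, on chromosome 9 (37991825 to 37996408, plus strand), stood at 65.7 and 77.6 CPM at 0 h, 53.4 and 74.0 CPM at 6 h, and 83.2 and 76.4 CPM at 24 h in tbGFP-positive libraries. In tbGFP-negative libraries it had 2 and 0 counts at 0 h, none at 6 h, and 11 and 4 counts at 24 h. The ratio at 0 h was 407 with a 95% counting interval of 112 to 3370, and the level was at least 229-fold higher at 6 h. At 24 h the log2 fold change was 6.53 ± 0.52 (adjusted p = 5.19e-07), and 7.31 without tbGFP-negative replicate 1 at 24 h. Of 39 other receptor genes within 500 kb, 33 were countable and 4 met the count rule.

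Olfr1425 and Olfr450 differed between the tbGFP-positive libraries at 6 h. Olfr1425, on chromosome 19, stood at 18.2 and 7.41 CPM at 0 h, 14.5 and 50.4 CPM at 6 h and 21.5 and 23.3 CPM at 24 h in tbGFP-positive libraries. It had no counts in tbGFP-negative cells at 0 and 6 h and then 2.17 and 1.90 CPM at 24 h, and the log2 fold change at 24 h was 3.44 ± 0.68 (adjusted p = 0.00596). Olfr450, on chromosome 6, was uneven at 6 h, with 1.21 and 18.2 CPM in the tbGFP-positive libraries (4 and 128 counts), beside 15.9 and 24.0 CPM at 0 h and 33.5 and 24.6 CPM at 24 h. Its tbGFP-negative libraries had no counts at 0 and 6 h and 0.724 and 0.254 CPM at 24 h. The 6 h call for Olfr450 (adjusted p = 0.00407) was lost without tbGFP-negative replicate 1 at 6 h (adjusted p = 0.0596).

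Olfr1277, on chromosome 2, had lower values at 6 h than at the other times. Its tbGFP-positive libraries stood at 14.2 and 13.6 CPM at 0 h, 3.02 and 6.95 CPM at 6 h and 10.6 and 15.9 CPM at 24 h, and 5 of its 6 tbGFP-negative libraries had no counts. Olfr699, on chromosome 7, had no counts in any of the 6 tbGFP-negative libraries and 6.74 to 9.72 CPM in the tbGFP-positive ones. It was at least 28.3-fold higher at 0 h, at least 30.1-fold at 6 h and at least 48.2-fold at 24 h. Of these 2 genes, Olfr699 had the narrower range over time.

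Olfr848-ps1, an unprocessed pseudogene of 930 bases in 1 exon on chromosome 9, was counted over its whole length. Its tbGFP-positive libraries stood at 10.5 and 5.93 CPM at 0 h, 2.41 and 5.39 CPM at 6 h and 9.76 and 8.54 CPM at 24 h. It had no counts in tbGFP-negative cells at 0 and 6 h and 0.414 and 0.888 CPM at 24 h, where the log2 fold change was 3.79 ± 0.94 (adjusted p = 0.0302). It was called at all 3 times, although GENCODE gives it no coding sequence. Its 24 h call held in 14 of 20 alternative fits.

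Vmn1r227, a V1R gene on chromosome 17, was the only Vmn1r gene called at every time. It stood at 15.3 and 15.8 CPM at 0 h, 3.02 and 5.53 CPM at 6 h and 11.2 and 12.4 CPM at 24 h in tbGFP-positive libraries. In tbGFP-negative cells it had no counts at 0 and 6 h and 0.414 and 0.254 CPM at 24 h. The log2 fold change at 24 h was 5.04 ± 0.83 (adjusted p = 0.00133), and the level was at least 59.6-fold higher at 0 h and at least 15.3-fold at 6 h. Counting only its most-counted transcript ended the 24 h call (adjusted p = 0.0661). A fit of the 4 libraries at 6 h alone ended its 6 h call (adjusted p = 0.173). That fit also ended the 6 h calls of Olfr699, Olfr1277 and Vmn2r52 (adjusted p = 0.0871, 0.169 and 0.178).

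Vmn2r52, a V2R gene on chromosome 7 whose countable bases are all coding, stood at 8.81 and 4.69 CPM at 0 h, 6.04 and 11.1 CPM at 6 h and 13.8 and 7.80 CPM at 24 h in tbGFP-positive libraries. Of the tbGFP-negative libraries only replicate 2 at 6 h had counts, 2 of them. The level was at least 25.8-fold higher at 0 h and at least 63.3-fold at 24 h, and the ratio at 6 h was 50.9 (95% counting interval 13.7 to 426). Vmn2r94, a V2R gene on chromosome 17, had 81 and 30 counts in the tbGFP-positive libraries at 0 h, 37 and 92 counts at 6 h, and 57 and 56 counts at 24 h. It had 1 count in the tbGFP-negative libraries at 0 h, none at 6 h and 2 at 24 h. Vmn2r52 has a stretch of 209 bases that is 98.6% identical to the helicase gene Dhx33 and Vmn1r227 one of 201 bases that is 98.5% identical to Olfr1238, and how reads with several genomic matches were treated is not stated.

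**Figure D4:**
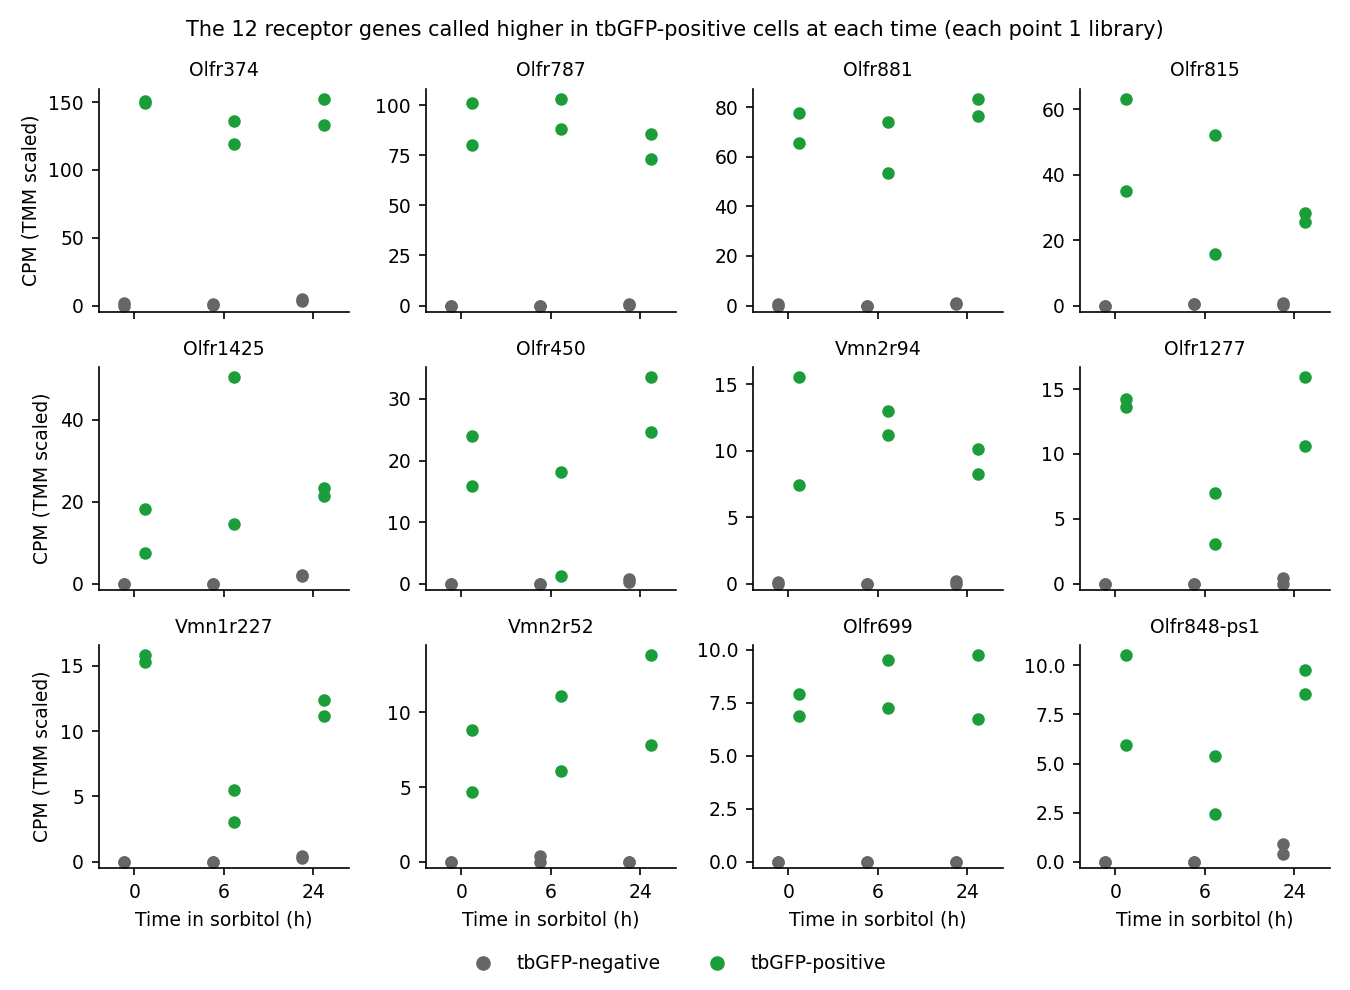
CPM of the 12 receptor genes called higher in tbGFP-positive cells at each time, with 1 point per library and panels ordered by mean level. Grey points are tbGFP-negative and green points tbGFP-positive libraries, and vertical scales differ between panels. Olfr374 reaches 152 CPM and Olfr699 9.72 CPM. In each panel but that of Olfr450 the green points at 6 h stand clear of the grey ones, and for Olfr450 1 green point lies at 1.21 CPM.

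Divided by countable length, the 12 genes stood in another order. Their mean levels in tbGFP-positive cells spanned 22.2-fold at 0 h and 17.4-fold at 24 h in CPM, and 18.1-fold and 26.9-fold in CPM per countable kb. At 0 h the mean level in tbGFP-positive cells was 25.4 CPM per countable kb for Olfr815, 24.4 for Olfr374, 22.5 for Olfr787, 21.8 for Olfr881, 20.6 for Olfr450 and 17.1 for Vmn2r52. At 24 h Olfr450 came first with 30.1 and Vmn2r52 second with 27.3, before Olfr881 with 24.3 and Olfr374 with 23.2. On this scale neighbours in the order lie closer than the libraries of a group do for Olfr815, whose libraries at 0 h stood at 35.0 and 63.0 CPM before division. The other 6 genes were lower at 0 h, from Olfr699 with 14.1 CPM per countable kb through Olfr1425 and then Olfr848-ps1 with 8.85 to Vmn1r227 with 6.28, Olfr1277 with 2.79 and Vmn2r94 with 1.40.

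The other 8 called genes passed at 1 or 2 times. At 0 h alone these were Olfr1372-ps1, Olfr161 and Vmn2r3, at 6 h alone Olfr1460-ps1, Olfr18 and Vmn1r15, at 24 h alone Olfr1506, and at 6 and 24 h Olfr329-ps. No test of the gap between times called any of them, so they are not shown to be tied to a time. Olfr18 had no counts in tbGFP-negative libraries and 1.48 to 5.13 CPM in each tbGFP-positive one, with adjusted p = 0.108, 0.0365 and 0.0567 at 0, 6 and 24 h. GENCODE lists Olfr329-ps as protein coding despite its name. It had 6 and 140 counts in the tbGFP-positive libraries at 6 h and 60 and 26 at 24 h. Any tbGFP-negative library had at most 2 at these times. Of its alternative fits, 16 of 18 called it at 6 h and 13 of 20 at 24 h. For Olfr18 at 6 h 12 of 19 did, for Olfr1460-ps1 at 6 h 13 of 17, and for Olfr161 at 0 h 12 of 20.

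Olfr1506 had 29 and 29 counts in tbGFP-positive and 0 and 0 in tbGFP-negative libraries at 24 h, which is at least 27.5-fold higher (adjusted p = 0.0119), a call lost in 3 of 20 alternative fits. Its transcript is identical over 2340 bases to the predicted gene Gm13769, so its counts could come from either copy. Vmn1r15, a V1R gene in 1 exon, had 46 and 50 counts in tbGFP-positive libraries at 6 h and 0 in tbGFP-negative ones (adjusted p = 0.0213), a call lost in 3 of 19 alternative fits. At 0 h it was uneven, with 22 and 0 counts in tbGFP-positive libraries. Vmn2r3 was higher in both libraries of each time but passed only at 0 h, with 17.0 and 34.3 CPM against 5.60 and 8.29 CPM (log2 fold change 1.85 ± 0.53, adjusted p = 0.0497), and 7 of its 20 alternative fits called it.

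The 70 receptor genes that passed in no comparison of fractions had a median level of 1.21 CPM over the 12 libraries, beside 5.36 CPM for the 20 called genes. Olfr839-ps1 had the highest of the 70 with 14.3 CPM, and the next had 4.08 CPM. Of the 90 genes, 30 had counts in all 6 tbGFP-positive libraries, 22 in all 6 tbGFP-negative libraries and 10 in all 12. The 6 tbGFP-negative libraries had no counts for 12 genes, which could meet the count rule only through tbGFP-positive libraries. Shares of all tested genes were not taken beside these numbers. The genes with the highest mean level in tbGFP-negative cells were Olfr839-ps1, Olfr1372-ps1, Vmn2r3, Vmn1r219 and Olfr1388. Olfr839-ps1, listed as protein coding, had 7.84 to 25.3 CPM in tbGFP-negative and 4.60 to 27.0 CPM in tbGFP-positive libraries, so the fractions overlapped, with log2 fold changes of -0.47 ± 0.64, -0.49 ± 0.60 and -0.25 ± 0.60 at 0, 6 and 24 h. The lowest adjusted p of the 3 was 0.647.

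Vmn1r219 stood at 1.49 to 8.05 CPM in tbGFP-negative and 0.604 to 8.51 CPM in tbGFP-positive libraries and also overlapped. Olfr1388 stood at 2.28 to 6.21 CPM in tbGFP-negative and 0.494 to 3.69 CPM in tbGFP-positive libraries, with log2 fold changes of -1.54 ± 0.95, -1.27 ± 0.89 and -0.46 ± 0.89, none of which passed. Olfr544, whose receptor is known to bind azelaic acid in mice, had 1 to 16 counts in every library and log2 fold changes of -0.14 ± 1.54, -0.09 ± 1.35 and 1.95 ± 1.47. Not all detected receptor genes were thus called in the tbGFP-positive fraction, although the wide errors leave most of these genes undecided.

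**Figure D5:**
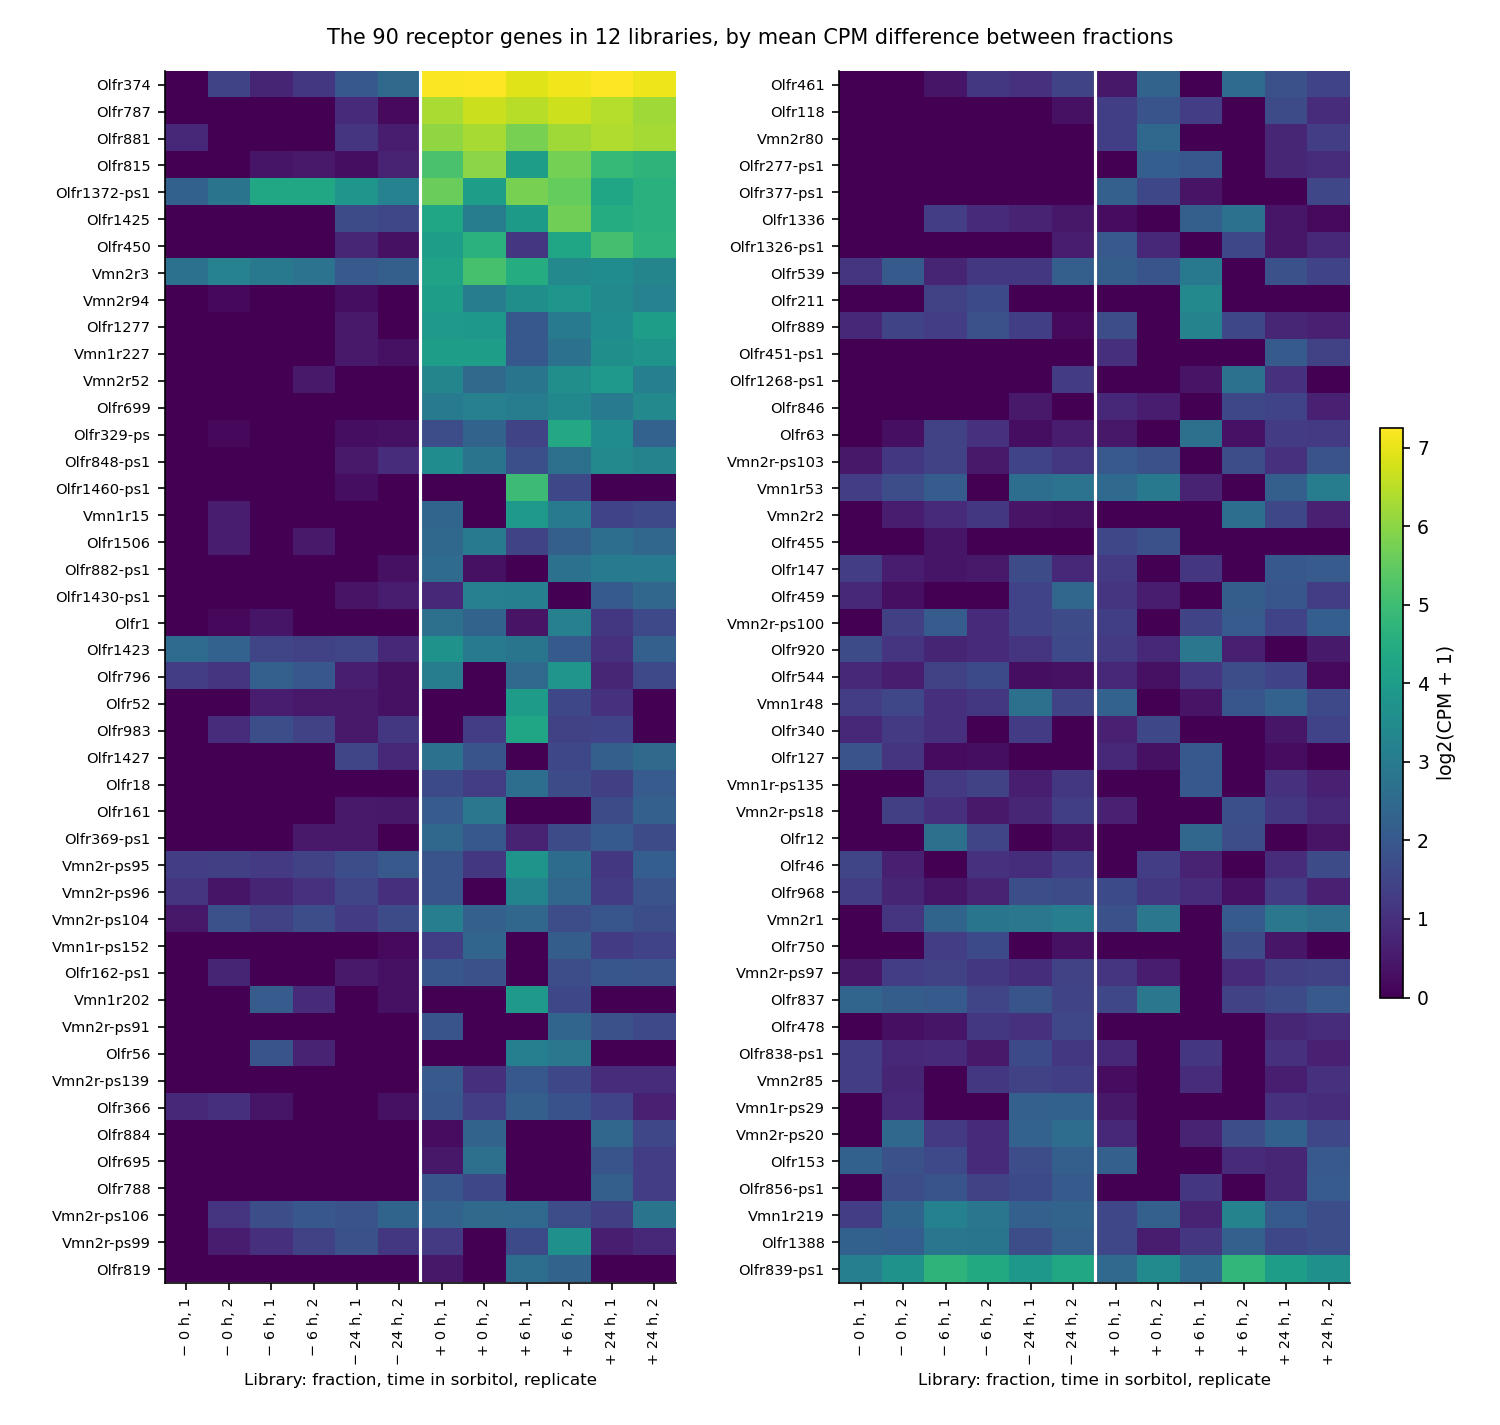
The 90 receptor genes (rows) in the 12 libraries (columns, tbGFP-negative left and tbGFP-positive right of the white line, then by hours in sorbitol and replicate), coloured by log2(CPM + 1) and ordered by the difference in mean CPM between fractions. The upper rows of the left panel, from Olfr374 to Olfr699, are dark in tbGFP-negative and bright in tbGFP-positive libraries, apart from Olfr1372-ps1 and Vmn2r3, which have counts in all 12. The last row, Olfr839-ps1, is bright in both fractions.

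Few receptor genes changed with time. Within tbGFP-positive cells, 2 of the 90 rose and 1 fell from 0 to 6 h, beside 2.14% and 3.76% of all genes tested. From 0 to 24 h 0 rose and 0 fell by edgeR or DESeq2, beside 0.304% and 0.248%, with 3 higher and 3 lower at an unadjusted p under 0.05. From 6 to 24 h 1 rose and 3 fell, beside 5.91% and 2.9%. Within tbGFP-negative cells 1 rose from 0 to 6 h (background 3.22%), 1 from 0 to 24 h (2.7%) and 3 from 6 to 24 h (3.62%), and 0 fell in any of these, beside 1.21%, 1.29% and 4.3% and 0, 1 and 5 members lower at an unadjusted p under 0.05. DESeq2 called 2, 3 and 3 higher and 0 lower in these. These shares of the members lie near or below the background, and every one of these calls was lost in some alternative fit.

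Some receptor genes had counts at 6 h and none at 0 h. Of the 90 genes, 9 had no counts in the 4 libraries at 0 h, and 4 of these had counts in all 4 libraries at 6 h, namely Olfr56, Olfr12, Olfr52 and Vmn1r202. Genes empty at 0 h could meet the count rule only through later libraries, so this pattern is partly fixed by the choice. The share of all tested genes with it was not taken, and 1 library at 0 h was the shallowest, with 2306870 counts. Olfr56, an odorant receptor gene on chromosome 11, had 16 and 3 counts in tbGFP-negative and 26 and 46 in tbGFP-positive libraries at 6 h, and none in any library at 0 or 24 h. Its level in tbGFP-positive cells was at least 22.2-fold higher at 6 h than at 0 h (adjusted p = 0.0476) and at least 29.8-fold lower at 24 h than at 6 h (adjusted p = 0.0324). The span of Olfr56 overlaps 10 other annotated genes, among them the interferon-inducible GTPase genes Ifi47, Tgtp1 and Tgtp2, so its counts are uncertain as counts of the receptor. The first of these calls was lost in 13 of 19 alternative fits and the second in 9.

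Olfr12 had 32 and 9 counts in tbGFP-negative and 14 and 16 in tbGFP-positive libraries at 6 h, none at 0 h and at most 2 at 24 h, and it passed in no comparison. Vmn1r202 had 20 and 4 counts in tbGFP-negative and 47 and 14 in tbGFP-positive libraries at 6 h, and fell in tbGFP-positive cells from 6 to 24 h, where both libraries had none (at least 33.5-fold lower, adjusted p = 0.0408). That call was lost in 11 of 19 alternative fits. Olfr1460-ps1, an unprocessed pseudogene, had 101 and 14 counts in tbGFP-positive libraries at 6 h and none at 0 and 24 h (adjusted p = 0.0403 and 0.0282). Most of its counts came from 1 library, and DESeq2 called neither change. The rise from 0 to 6 h was lost in 12 of 17 alternative fits and the fall from 6 to 24 h in 4 of 17.

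Olfr161, on chromosome 16, ran the other way in tbGFP-positive cells. It had 17 and 26 counts at 0 h, none at 6 h and 12 and 25 at 24 h, with adjusted p = 0.0443 for the fall and 0.04997 for the rise. The fall was lost in 12 of 19 alternative fits and the rise in 16. Olfr788, named after its values were seen, had a like order, with 15 and 8 counts, then none, then 20 and 10, and passed in no comparison. None of the 3 V2R genes called between fractions passed in a comparison of times.

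In tbGFP-negative cells, 10 of the 12 receptor genes called at every time had counts at 24 h, and Olfr699 and Vmn2r52 had none. Those with counts at 0 h were Olfr374, Olfr881 and Vmn2r94, and at 6 h Olfr374, Olfr815 and Vmn2r52. The 12 genes were chosen by their calls, which need low tbGFP-negative values, and the share over all tested genes was not taken. Depth also differed, with 2306870 and 7344399 counts in these libraries at 0 h and 7900178 and 6415064 at 24 h. Olfr1425 had no counts in the 4 tbGFP-negative libraries at 0 and 6 h and 21 and 15 counts at 24 h, at least 7.8-fold higher than at 0 h (adjusted p = 0.0283) and at least 7.31-fold higher than at 6 h (adjusted p = 0.0182). Olfr374 had 4 and 6 counts at 6 h and 29 and 37 at 24 h (log2 fold change 2.00 ± 0.54, adjusted p = 0.0338). Olfr881 had none at 6 h and 11 and 4 at 24 h (at least 2.95-fold higher, adjusted p = 0.0487). Leaving out either tbGFP-negative library at 6 h or at 24 h ended each of these calls against 6 h, and in all the call of Olfr374 was lost in 8 of 20 alternative fits and that of Olfr881 in 10 of 19. The call of Olfr1425 against 0 h ended without either tbGFP-negative library at 0 h or any 1 library of either fraction at 24 h.

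The mean level in tbGFP-negative cells at 24 h was 9.11% of that in tbGFP-positive cells for Olfr1425, 7.11% for Olfr848-ps1, 2.69% for Olfr374, 1.03% for Olfr881 and 0.6% for Olfr787. It was 1.13% to 2.83% for the other 5 with counts. For the 14 markers of the 2-cell-like state the same measure ran from 1.41% for Tdpoz4 to 3.26% for Tcstv3. The summed level of these markers in tbGFP-negative libraries went from 59.3 to 75.6 CPM at 6 h to 881 to 935 CPM at 24 h, and their part in the receptor counts was not tested. Olfr1372-ps1, a transcribed pseudogene on chromosome 11, rose earlier, from 3.73 and 5.91 CPM at 0 h to 19.6 and 19.3 CPM at 6 h (log2 fold change 1.95 ± 0.49, adjusted p = 0.035), and stood at 13.1 and 8.37 CPM at 24 h. That call was lost when library totals alone were used for scaling, where TMM factors add 0.34 to this log2 difference in every gene, and in 8 of the 12 fits that left out 1 library. The factors likewise added 0.44, 0.02 and 0.43 to the log2 difference between fractions at 0, 6 and 24 h, which is small beside the fold changes of the 12 genes called at every time.

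Whether the gap between fractions differed from that at 0 h was tested for each gene. At 6 h 0 receptor genes passed by edgeR or DESeq2 (background 0% higher and 0.17% lower), and 4 had an unadjusted p under 0.05, all with a lower positive-to-negative ratio than at 0 h. At 24 h 0 passed by either tool (background 0.0206% higher and 0.949% lower), and 8 had an unadjusted p under 0.05, again all with a lower ratio. Among these 8 were Olfr374 (-1.61 ± 0.60, adjusted p = 0.599), Olfr787 (-4.84 ± 1.53, adjusted p = 0.385) and Olfr1425 (-5.83 ± 1.79, adjusted p = 0.336). For Olfr787 and Olfr1425 the size of this difference depends on tbGFP-negative groups without counts at 0 h. The share of all tested genes at an unadjusted p under 0.05 was not taken. The adjusted calls over all tested genes also leaned lower, so the shared direction is not shown to be particular to receptor genes. Over these libraries the gap is thus not shown to change with time in any receptor gene.

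Genes of olfactory signalling and receptor choice were read beside the receptors. Of 34 such genes with counts, 19 were tested. Of these 2 passed as higher in the positive fraction at 0 h (10.5%, beside 6.66% of all genes tested), 1 at 6 h (5.26%, beside 6.92%) and 1 at 24 h (5.26%, beside 5.35%), and 1 was lower at 6 h (5.26%, beside 5.22%). Their median log2 fold change was -0.32, 0.58 and 0.15, and their difference from the receptors was not tested. Adcy2, an adenylyl cyclase gene, was the gene higher at every time, with a mean at 0 h of 197 ± 6.21 CPM (SD, n = 2) in the positive and 4.54 ± 2.73 CPM in the negative fraction (log2 fold change 5.27 ± 0.36, adjusted p = 3.41e-08). B2m, whose protein is part of class I complexes that accompany V2R receptors in vomeronasal neurons, was the second gene at 0 h, with 28.4 ± 0.259 against 9.25 ± 0.41 CPM (adjusted p = 0.0162). Omp, which encodes the olfactory marker protein of mature sensory neurons, was lower at 6 h, with no counts in the 2 tbGFP-positive libraries and 38 and 19 in the tbGFP-negative ones (adjusted p = 0.0202).

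Of 86 genes for taste, trace amine, formyl peptide and MS4A receptors, 37 had counts and 11 were tested. Between fractions edgeR called 1 of the 11, Ms4a14, lower at 6 h (9.09%, beside 5.22% of all genes tested), with 0 and 3 counts in tbGFP-positive and 24 and 28 in tbGFP-negative libraries (ratio 16.7, 95% counting interval 5.4 to 83.5, adjusted p = 0.016). Tas1r1, a subunit of the umami taste receptor, changed with time in both fractions. It rose from 10.9 ± 1.46 to 63.6 ± 5.68 CPM between 0 and 6 h in tbGFP-negative cells (adjusted p = 0.00154) and from 6.46 ± 2.50 to 31.4 ± 6.48 CPM in tbGFP-positive cells (adjusted p = 0.00533), and fell again from 6 to 24 h in both (adjusted p = 0.000499 and 0.0197).

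The first exons of the counted transcripts were compared with all annotated transcripts, a comparison chosen after values had been seen. Olfr118, a protein-coding Olfr gene on chromosome 17, stood apart by its number of tested matches. The first 250 bases of its first exon matched transcripts of 113 other genes over at least 50 bases, at a median identity of 94.9%. Of these 113 genes 81 were tested, and 43 of them (53.1%) passed as higher in the positive fraction at 0 h, beside 6.66% of all genes tested, with 49 higher at 6 h and 43 at 24 h. Olfr118 itself had 8 and 11 counts in tbGFP-positive libraries at 0 h, 5 and 0 at 6 h, 12 and 6 at 24 h, and 2 in all in tbGFP-negative libraries, and did not pass at any time (lowest adjusted p = 0.222). The genes that share this sequence can also share reads where copies are nearly identical, so they are not independent of each other. Among the other members, Olfr162-ps1 had the most tested matches, 16, of which 3 were higher at 0 h (18.8%). For Olfr340 3 of 12 were (25%) and for Olfr277-ps1 2 of 3 (66.7%), whereas for Vmn2r-ps104 0 of 13 were.

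Copies limit several other members. Of the 90 genes, 17 have a stretch of at least 200 bases that is at least 98% identical to another annotated transcript, 9 of them Vmn2r genes. Vmn2r-ps96 and Vmn2r-ps95 share 2332 bases at 98.7% identity, and their values are uncertain as values of either gene. The spans of 14 members overlap another annotated gene. The count rule also sets an edge: 12 members had 10 counts in their second highest library, of which Olfr455, Olfr277-ps1 and Olfr127 had the fewest in all, and among the genes just outside were Vmn2r-ps19, Vmn1r124 and Vmn2r61, with 9.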

How the data were processed

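RNA was measured in 12 libraries of sorted mouse embryonic stem cells, grouped by the labels' fraction and time. Stranded total RNA libraries were made, per the labels' protocols. FastQC, HISAT2, featureCounts, DESeq2 and mm10 are named, without versions, per the submitters' processing notes. The deposited files hold raw counts for 142446 transcripts, per the file headers. Strand setting and treatment of multiply mapped reads are not given in the sources used here. The check of overlapping transcripts showed that strand was not used in counting. Among receptor genes with 1 to 10 counts, 42.6% to 74.4% of values per library were even. Whether both ends of a fragment were counted is not given either. Counting intervals may thus be too narrow, and folds given as at least a value may be too high.

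Counts were summed per gene with GENCODE M21 (GRCm38, the build of mm10). Of the transcripts 141536 matched and 910, with 0.0606% to 0.0903% of the counts, did not and were left out. The design assumed gene counts. Genes with 10 or more counts in 2 or more libraries, 19384 in all, entered the test with edgeR 4.0.16 (TMM factors, robust quasi-likelihood F test, 1 mean per group, all 12 libraries; common dispersion 0.208), and adjusted by Benjamini-Hochberg within each of 9 comparisons and 2 interactions at 0.05. The SE is the absolute log2 fold change over the square root of F. The procedure was tested on simulated data. DESeq2 1.42.0 was an alternative. A group without counts was set to a floor of 3 counts over the group, which corresponds to 0.38 to 1.3 CPM in 1 library; with 1 to 3 counts the ratio has a 95% exact interval. Floors and intervals cover counting error only. Copies were found with blastn 2.17.0 and promoters and motifs taken from RefSeq tables.

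Members and gene lists were chosen with earlier results of these data known. The naming rule took, per comparison of fractions, the 8 largest increases and 5 largest decreases among called members, per other comparison 5 in each direction, the 5 highest mean levels over 12 and over 6 tbGFP-negative libraries, Vmn genes called in at least 2 comparisons of fractions, 3 genes on each side of the count rule, and Olfr787 and Vmn2r52. Other members called in a comparison, and Olfr12, Olfr52, Olfr118, Olfr544 and Olfr788, were named after their values were seen.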

Additional observations from a re-analysis of the deposited data

How the results depend on the processing

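Between fractions every called member kept its direction. The counts of 15, 16 and 14 genes at 0, 6 and 24 h were 14, 16 and 14 with upper-quartile factors, 14, 16 and 13 with library totals, 19, 20 and 16 without a filter, 14, 16 and 13 with the most-counted transcript, and 21, 22 and 17 with DESeq2. Deviations from group means over all tested genes showed no pairing of same-numbered replicates (correlations between -0.0401 and 0.0297). Counting noise in low genes can hide a pairing, so it is not excluded. A replicate block gave 13, 15 and 13. With only the 4 libraries compared they were 19, 6 and 27. Without both tbGFP-positive libraries at 6 h they were 27 at 0 h and 21 at 24 h, and no value exists for comparisons that need these libraries. Leaving out each library in turn gave 9 to 27, 8 to 26 and 9 to 22.

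Within tbGFP-positive cells the 3 calls from 0 to 6 h became 8 without a filter, 1 with the replicate block, 0 with only the 4 libraries, 6 with DESeq2 and 0 to 14 without 1 library. The 0 calls from 0 to 24 h became 1 without both tbGFP-positive libraries at 6 h and 0 to 1 without 1 library. The 4 calls from 6 to 24 h became 7 without a filter, 1 with the block, 0 with only the 4 libraries and 0 to 14 without 1 library. Within tbGFP-negative cells the 1 call from 0 to 6 h became 0 with library totals, 2 without both tbGFP-positive libraries at 6 h, 4 with only the 4 libraries, 2 with DESeq2 and 0 to 4 without 1 library. The 1 call from 0 to 24 h became 2 without a filter, 3 without both tbGFP-positive libraries at 6 h, 4 with only the 4 libraries, 3 with DESeq2 and 0 to 3 without 1 library. The 3 calls from 6 to 24 h became 8 without both tbGFP-positive libraries at 6 h, 10 with only the 4 libraries and 0 to 10 without 1 library. The 0 interaction calls at 6 h became 0 to 3 without 1 library, and those at 24 h became 1 without a filter and stayed at 0 to 0 without 1 library. The cause of these shifts was not tested.

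Over all annotated receptor genes the mean share of counts moved to 0.012%, 0.0188% and 0.0212% in tbGFP-negative and 0.0629%, 0.0776% and 0.0626% in tbGFP-positive cells at 0, 6 and 24 h, since more genes enter. Leaving out 1 library gave 0.00716% to 0.0106%, 0.0112% to 0.0124% and 0.0147% to 0.016% in tbGFP-negative cells and 0.0559% to 0.0595%, 0.0596% to 0.0686% and 0.0567% to 0.0574% in tbGFP-positive cells. Uncalled log2 fold changes turned sign. Without 1 library Olfr839-ps1 ranged from -1.12 to 0.02 at 0 h, -2.27 to 0.20 at 6 h and -0.48 to 0.09 at 24 h (0.05 in another case), and Vmn1r219 from -0.59 to 0.89 at 0 h (0.35 in another case) and -3.55 to 0.21 at 6 h. With the replicate block Vmn1r219 was at 0.01 at 0 h. Of 48 calls of named genes 21 held in every alternative. Depth limits the low members: 3 counts are 0.38 to 1.3 CPM.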
